A study of Mus musculus with 12 samples.

Results

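The response of wild-type C57BL/6 macrophages to apoA-I was measured on 6 of the 12 arrays of the series, 3 titled as C57BL/6 with apoA-I and 3 titled as C57BL/6 control, chosen by their titles alone. The cells of all 6 samples were peritoneal macrophages of female mice aged 10 weeks, drawn into the abdominal cavity with thioglycollate and collected 96 h later. All had been loaded overnight with cholesterol at 10 µg/ml and kept with polymyxin B, which neutralises endotoxin from bacteria, at 25 µg/ml, with bovine serum albumin at 2 mg/ml in both media. For the apoA-I samples the labels give a wait of 30 min in the polymyxin B medium and then apoA-I at 10 µg/ml for 2 h. For control replicates 1 and 3 they name no such wait and no further step, and the source names give 2 h for both groups. The other 6 arrays hold the same treatments of mice without MyD88. They entered the choice of probes, the fit of the replicate numbers, the shared estimate of the spread and a short comparison. In fits that omitted a single array of these 6 samples they bore on the estimated changes as well. Each replicate number held 1 control and 1 apoA-I array, and such a pair is called an experiment here. Whether the samples came from separate animals is not stated in the labels, and the p-values here reflect sample-to-sample spread that could be technical. The description of control replicate 2 includes the apoA-I step although its title and source name say control, and the same conflict, the other way round, touches an apoA-I array of the MyD88-null mice. Titles were followed.

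ApoA-I, the chief apolipoprotein of high-density lipoprotein, accepts cholesterol from macrophages through the transporter ABCA1. Macrophages answer danger signals through NF-kappaB, a dimeric transcription factor held in the cytoplasm by inhibitors of the IkappaB family. Signals free it within minutes, and among the genes it then switches on are cytokines, chemokines and its own inhibitors, which close the loop.

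Signal is given as log2 of a probe's processed intensity minus the 75th percentile of its array, so that 0 is the level of the 75th percentile. That percentile ran from 325.1 to 1408 intensity units on the 6 arrays, and 59.17% to 67.08% of the 41174 probes were well above background. Replicate arrays correlated across genes at 0.943 to 0.976 in controls and at 0.941 to 0.979 with apoA-I. The summed level of the 10 measured macrophage markers was 9.15 to 9.77 on the log2 scale in controls and 9.60 to 9.87 with apoA-I, and all 10 were above background on all 6 arrays. Markers of other cells were also measured. The 8 B cell markers summed to 4.50 to 5.10 in controls and 4.86 to 4.96 with apoA-I, and the 12 mesothelial and fibroblast markers to 6.11 to 7.90 and 6.44 to 8.01. The ranges of the groups overlapped for these lists. Those of the 6 mast cell markers did not, at 2.13 to 2.48 in controls and 2.54 to 2.69 with apoA-I, and the part of such cells in the results was not tested. Among all the markers only Cd14, a macrophage marker that is itself induced by inflammatory signals, passed the test of the response. These samples are bulk RNA, in which a change in the number of cells of a type and a change per cell cannot be told apart.

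ApoA-I raised 396 and lowered 174 of 16743 genes at an adjusted p under 0.05 (limma with the replicate number as a block, Benjamini-Hochberg adjustment over all genes), which is 3.40% of the genes in all, 2.37% higher and 1.04% lower. An unadjusted p under 0.05 was found for 2687 genes. Counts in lists and families below are to be read against the 2.37% higher and 1.04% lower. Where numbers stand in brackets after a gene, the first is its log2 change, apoA-I minus control, and SE is its standard error. The rises were larger than the falls: their median log2 change was 1.59, from 0.57 to 8.75, against a median of -1.01 for the falls, from -2.29 to -0.57. Changes between 1 and 2 on the log2 scale were found for 175 genes higher and 85 lower. In the narrower class from 0.5 to 1 the counts were alike, 90 higher and 84 lower. From 2 to 3 there were 73 rises and 5 falls, and above 3 there were 58 rises, of which 7 exceeded 6, and no fall. No gene with a change under 0.5 passed. Of the genes that passed, 359 of the 396 higher and 128 of the 174 lower had control and apoA-I arrays that did not overlap, as had 13.1% of all genes. The difference had the same sign in all 3 experiments for each of the 396 and each of the 174, as it had for 48.3% of all genes with a positive and 46.8% with a negative fitted change.

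**Figure D1:**
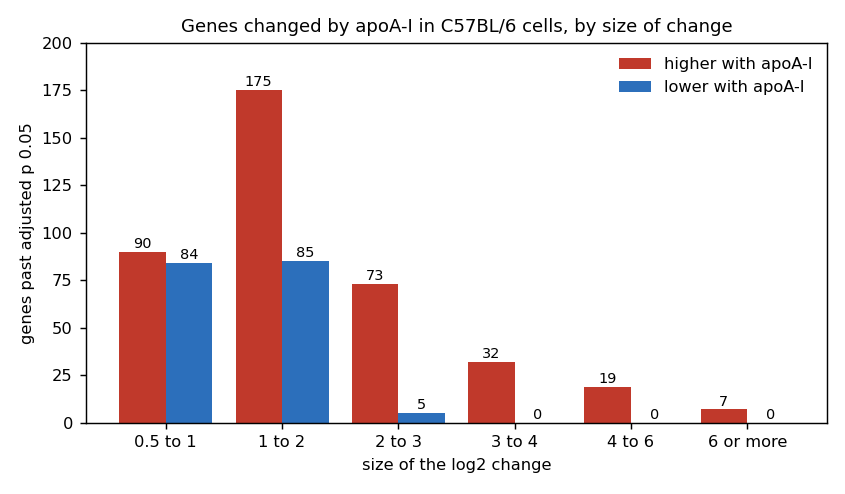
Number of genes past adjusted p 0.05 (vertical axis) by size of the log2 change (horizontal axis), higher with apoA-I in red and lower in blue, from 3 control and 3 apoA-I arrays. The classes differ in width, so their heights do not show where changes are densest. From 0.5 to 1 there were 90 higher and 84 lower genes, and from 1 to 2 there were 175 and 85. Above 3 there were 58 rises and no fall.

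Of the 396 rises and 174 falls, 136 and 3 also passed without the replicate block. With a control array left out, 238 and 19 did so (replicate 1), 146 and 4 (replicate 2) or 226 and 53 (replicate 3). With an apoA-I array left out they were 227 and 25 (replicate 1), 133 and 3 (replicate 2) or 209 and 43 (replicate 3), and with a replicate number left out altogether 167 and 3 (replicate 1), 21 and 0 (replicate 2) or 57 and 1 (replicate 3). Genes outside the 570 passed in some of these fits as well. Without both arrays whose descriptions go against their titles, 81 rises and no fall passed in limma, where 1831 genes had an unadjusted p under 0.05, and with treatments taken from the descriptions no gene passed in either direction and 673 had an unadjusted p under 0.05. The sign of every one of the 570 changes stayed as it was under these settings, and the median of the 174 falls lay between -0.88 and -1.07 when an array or a replicate number was left out. Each of the 570 had the same sign in every experiment. Its sign therefore could not turn without the replicate block or with a replicate number left out. The median differences were largest in experiment 2: the median rise was 1.42, 1.80 and 1.49 in experiments 1 to 3, and the median fall -0.93, -1.21 and -0.81. Experiment 2 gave the largest of the 3 differences for 268 of the 396 rises and 116 of the 174 falls. It is also the experiment whose control carries the conflicting description, whose part in this was not tested.

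The largest named fall was that of Gadd45g, which encodes a stress sensor that binds cell cycle and MAP kinase proteins (mm7 chromosome 13, 50882456 to 50882515). Gadd45g stood at 5.40, 5.15 and 5.26 on control arrays 1 to 3 and at 2.99, 1.85 and 4.11 with apoA-I, a log2 change of -2.29 (SE 0.41, 4.88-fold lower, adjusted p = 0.025). The control arrays lay close together, the treated arrays were spread more widely, and the groups did not overlap. Hhex, a homeobox transcription factor of blood and endothelial development (mm7 chromosome 19, 37141162 to 37141221), read 1.49, 1.48 and 2.42 in control cells and -0.95, -1.37 and 0.91 in treated cells, a change of -2.27 (SE 0.28, 4.82-fold lower, adjusted p = 0.00473). In both genes the apoA-I array of replicate 2 was the lowest and that of replicate 3 the highest of the treated arrays. Hhex was the 1 gene of the 20 named falls to keep its call with each array left out in turn (highest adjusted p = 0.0356). In limma with the 6 C57BL/6 arrays alone, Hhex missed the threshold (adjusted p = 0.0535). A further Hhex probe gave -1.59 with adjusted p = 0.12.

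Among the other named falls, Jun, the founding member of the AP-1 family (mm7 chromosome 4, 94441779 to 94441838), went from 2.52, 2.39 and 2.71 to 0.96, -0.14 and 1.60, a log2 change of -1.73 (SE 0.32, 3.33-fold lower, adjusted p = 0.0265) with no overlap. Tal2, a basic helix-loop-helix factor, changed by -1.71 (SE 0.32, adjusted p = 0.0276), and Cbx2, a Polycomb protein that reads histone methylation, by -1.58 (SE 0.32, adjusted p = 0.0378). The zinc finger genes Zkscan4 (-2.03), Zfp14 (-1.90) and Mzf1 (-1.56) were also lower, with adjusted p of 0.0463, 0.0252 and 0.0318. These were dim in every sample: the control means of Zkscan4, Zfp14, Mzf1, Tal2 and Cbx2 were -3.63, -3.57, -3.58, -3.42 and -2.73. Under normexp background correction 13 of the 20 passed. These 5 then missed the threshold, with adjusted p of 0.501, 0.692, 0.813, 0.625 and 0.27, as did Olfr1221 (0.439) and Dnajc28 (0.0596), whereas Gadd45g, Hhex and Jun then had adjusted p of 0.00616, 0.000284 and 0.00665.

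Thbd encodes thrombomodulin, the endothelial and myeloid receptor that turns thrombin from a clotting into an anticoagulant enzyme (mm7 chromosome 2, 148145356 to 148145415). Thbd read -0.07, 0.63 and 0.75 in control cells and -1.86, -2.16 and -0.22 in treated cells, a change of -1.85 (SE 0.33, 3.6-fold lower, adjusted p = 0.0232), and the lowest control lay just above the highest treated array. Cnr2, the cannabinoid receptor of immune cells, went from 0.66, 0.71 and 0.11 to -1.12, -2.67 and -1.06 (-2.11, SE 0.44, adjusted p = 0.0416), again without overlap, and a further Cnr2 probe gave -1.63 with adjusted p = 0.11. Rgs2, which shortens G protein signalling by speeding GTP hydrolysis (mm7 chromosome 1, 143927444 to 143927503), went from 4.27, 4.10 and 4.33 to 3.10, 1.54 and 3.28 (-1.59, SE 0.31, adjusted p = 0.0325), but a further Rgs2 probe gave -0.48 with adjusted p = 0.77. Rhov, an atypical small GTPase, changed by -1.89 (SE 0.41, adjusted p = 0.046), and Klhl21, an adaptor of a ubiquitin ligase, by -1.64 (SE 0.26, adjusted p = 0.0133). Bmf, a BH3-only protein that promotes apoptosis, read 0.30, 0.34 and 0.70 in control cells and -2.18, -2.73 and -0.33 in treated cells (-2.19, SE 0.41, adjusted p = 0.0294). The call rests on 1 of its probes, since another gave 0.01 with adjusted p = 0.99. Olfr1221, annotated as an odorant receptor, changed by -1.68 (SE 0.36, adjusted p = 0.0469), with readings of -0.86, -1.53 and -4.47 in control cells and -3.15, -2.44 and -6.30 in treated cells that overlap widely.

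The remaining named falls were Dnajc28 (-1.72), a J-domain protein, Fam78a (-1.70), Atp23 (-1.63), a mitochondrial protease, and Tmem86a (-1.58), with adjusted p of 0.0453, 0.0186, 0.0457 and 0.0171. None of the 20 passed without the replicate block, where their adjusted p ran from 0.0529 for Cbx2 to 1 for Olfr1221. Apart from Hhex, each of the 20 lost its call in 3 to 6 of the 6 fits that omitted an array, most often at its weakest without control replicate 2 (9 of the 20, Hhex among them) or apoA-I replicate 2 (10 of the 20), and the highest adjusted p there was 0.237 for Dnajc28 without apoA-I replicate 2. Experiment 2 showed the largest fall for 16 of the 20 and experiment 3 the smallest for 17. In limma with the 6 C57BL/6 arrays alone, none of the 20 passed. Their adjusted p then ran from 0.0535 for Hhex to 0.132 for Zfp14.

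**Figure D2:**
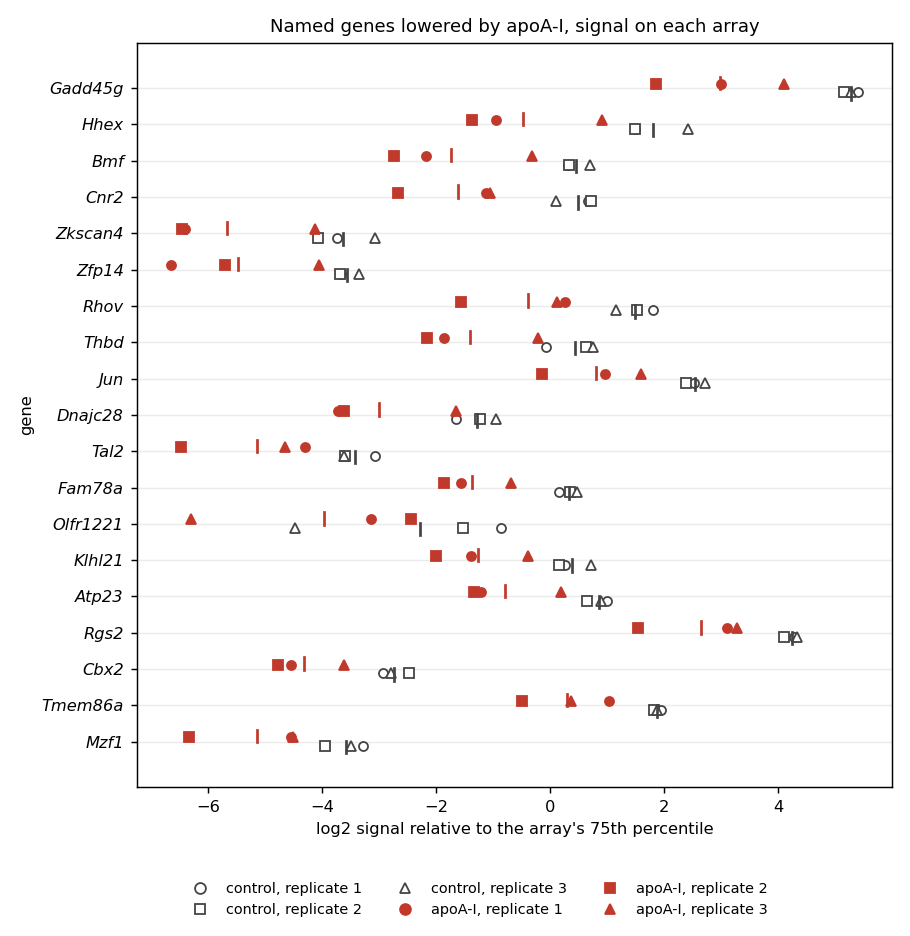
Signal on the log2 scale above or below the 75th percentile of its array (horizontal axis) for 19 genes lowered by apoA-I (vertical axis), with a symbol for each array, open for the 3 controls and red for the 3 apoA-I arrays, and vertical ticks at the group means. The groups overlap for Olfr1221 and for none of the other 18, and for 17 of the 19 the drop from control to apoA-I was smallest in replicate 3.

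Falls smaller than those of the 20 are named as members of lists. Cebpa, the myeloid C/EBP factor (mm7 chromosome 7, 32011212 to 32011271), read 2.50, 2.66 and 2.23 in control cells and 1.29, 0.77 and 0.99 in treated cells, a log2 change of -1.45 (SE 0.24, 2.73-fold lower, adjusted p = 0.0171) without overlap, and another probe gave -0.93 with adjusted p = 0.074. Tsc22d3, the glucocorticoid-induced leucine zipper protein, changed by -1.49 (SE 0.30, adjusted p = 0.035), with groups that overlapped. In the list of C/EBP, RUNX, FOX, MEF2 and GATA factors and their relatives, 39 of 41 members were measured, 3 were lower (Hhex, Tsc22d3 and Cebpa) and 2 higher. The higher ones were Prdm1, the repressor Blimp-1, with 1.81 (SE 0.34, adjusted p = 0.0288), and Hivep3, a zinc finger protein, with 1.67 (SE 0.28, adjusted p = 0.0194). With an array left out the call was lost for Cebpa (highest adjusted p = 0.104, without control replicate 2) and for Tsc22d3, Prdm1 and Hivep3 (highest adjusted p of 0.2, 0.153 and 0.122, without apoA-I replicate 2).

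Zinc finger genes named Zfp had mostly negative changes. Of 283 measured, 15 were lower and 4 higher, 6.7% in all against 3.40% of all genes, and the median log2 change was -0.32, against -0.002 for all genes. A positive change was found for 66 of the 283, against 8325 of all 16743 genes. The family's median was -0.44, -0.21 and -0.19 in experiments 1 to 3, and -0.34 after quantile normalization and -0.15 with normexp correction. Most of these genes encode C2H2 zinc finger proteins that bind DNA. The largest falls were Zfp14 (-1.90, SE 0.35, adjusted p = 0.0252), Zfp862-ps (-1.42, SE 0.27, adjusted p = 0.028), Zfp101 (-1.33, SE 0.26, adjusted p = 0.0321) and Zfp273 (-1.30, SE 0.25, adjusted p = 0.0307). The higher ones were Zfp36 (1.63, SE 0.18, adjusted p = 0.00249), Zfp263 (1.25, SE 0.19, adjusted p = 0.0111), Zfp131 (0.97, SE 0.20, adjusted p = 0.0416) and Zfp607a (0.83, SE 0.18, adjusted p = 0.0473). Zfp36, tristetraprolin, is unlike the rest in that it binds AU-rich messenger RNA and speeds its decay. With normexp correction Zfp862-ps, Zfp101, Zfp273 and Zfp607a missed the threshold (adjusted p of 0.423, 0.274, 0.0596 and 0.204), as Zfp14 did. The 15 falls came to 2 without the replicate block and to between 0 and 9 with an array left out (0 without apoA-I replicate 2, 1 without control replicate 2, 2 without control replicate 1 or apoA-I replicate 1, 9 without control replicate 3 or apoA-I replicate 3), and the 4 rises to 0 without the replicate block and to between 1 and 2 with an array left out (1 without control replicate 2 or apoA-I replicate 2, 2 without control replicate 1 or 3 or apoA-I replicate 1 or 3). BTB zinc finger genes gave 3 falls, Zbtb8a (-1.06), Zbtb14 (-0.91) and Zbtb45 (-0.78), and 1 rise, Zbtb7a (0.94), among 38, with adjusted p of 0.0429, 0.0452, 0.0242 and 0.0152. The call was lost with an array left out for Zbtb8a and Zbtb45 (highest adjusted p of 0.201 and 0.133, without control replicate 2) and for Zbtb14 and Zbtb7a (highest adjusted p of 0.23 and 0.104, without apoA-I replicate 2), and with normexp correction for Zbtb8a and Zbtb14 (adjusted p of 0.112 and 0.109).

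The named rises of middle size, from 1 to 3 on the log2 scale, are the 15 with the smallest p. Icosl, the ligand of the T cell costimulator ICOS (mm7 chromosome 10, 77734070 to 77734129), read -1.96, -1.59 and -1.49 on control arrays 1 to 3 and 0.61, 1.33 and 1.18 with apoA-I, a change of 2.72 (SE 0.13, 6.57-fold higher, adjusted p = 3.8e-05). Cd83, a marker of activated antigen-presenting cells (mm7 chromosome 13, 43243266 to 43243325), went from 4.25, 4.40 and 4.26 to 6.92, 7.07 and 6.67, a change of 2.59 (SE 0.18, 6.01-fold higher, adjusted p = 0.000265). Pvr, the poliovirus receptor, an adhesion molecule seen by T and NK cells, changed by 1.96 (SE 0.15, 3.9-fold higher, adjusted p = 0.000564). In these 3 genes the spread within a group was small beside the change: the highest SD was 0.38, for Icosl with apoA-I.

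Transcription factors of this size were Irf1, Nfkb2 and Jdp2. Irf1, an interferon regulatory factor (mm7 chromosome 11, 53733970 to 53734029), read 4.77, 4.72 and 4.33 in control cells and 7.03, 7.07 and 6.35 in treated cells (2.21, SE 0.18, 4.64-fold higher, adjusted p = 0.000624), and another probe gave 2.43 with adjusted p = 0.0096. Nfkb2, the precursor of the NF-kappaB subunit p52 (mm7 chromosome 19, 46208290 to 46208429), went from 2.84, 3.30 and 2.27 to 4.38, 5.17 and 4.38 (1.84, SE 0.16, 3.59-fold higher, adjusted p = 0.000834). Jdp2, a bZIP protein that dimerises with Jun, changed by 1.72 (SE 0.15, adjusted p = 0.000865). Among receptors, Ccrl2, an atypical receptor that binds the chemoattractant chemerin, read 4.10, 4.03 and 3.13 and 6.92, 6.93 and 5.72 (2.77, SE 0.24, 6.82-fold higher, adjusted p = 0.000865), with replicate 3 lowest in both groups. Tnfrsf1b, the second receptor of tumour necrosis factor (mm7 chromosome 4, 144626830 to 144626889), went from 4.75, 4.67 and 4.73 to 6.28, 6.54 and 6.45 (1.71, SE 0.15, 3.27-fold higher, adjusted p = 0.000918). The adaptors of that receptor family, Traf1 (2.58, SE 0.22, adjusted p = 0.000878) and Traf5 (1.63, SE 0.13, adjusted p = 0.000816), rose with it. Ccl9 is a chemokine of the CC family, Bcl2a1b an antiapoptotic relative of Bcl2, Ehd1 a protein of endosomal recycling, Phldb1 a microtubule-anchoring protein and Slfn2 a Schlafen protein needed for T cell quiescence. Their log2 changes were 2.06, 2.19, 2.04, 1.80 and 2.37, with adjusted p of 0.000823, 0.000823, 0.000865, 0.000865 and 0.000918. Bcl2a1b has near-identical gene copies that its probe may not separate. All 15 named genes of this size had groups that did not overlap, and all kept their call with each array left out in turn, with adjusted p of at most 0.0115. They were chosen for their small p, which favours both outcomes. Of all 396 rises, 359 had groups that did not overlap, and 133 to 238 kept their call in the fits that omitted 1 array. Without the replicate block 14 of the 15 passed, and Nfkb2 had adjusted p = 0.0876. With the slide as a block Ehd1 had adjusted p = 0.061.

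**Figure D3:**
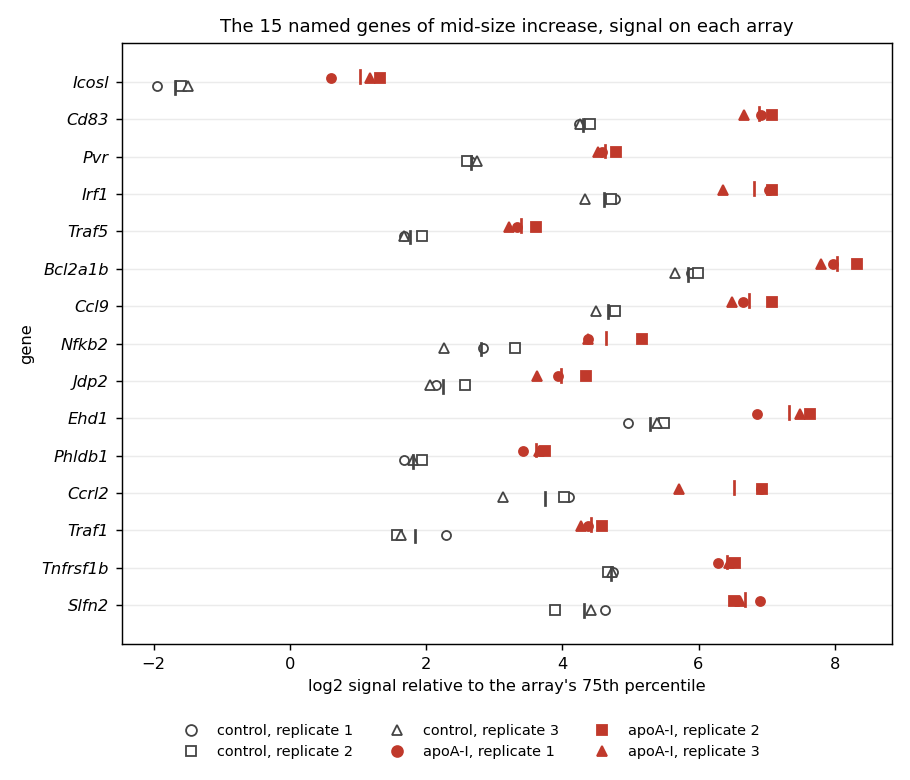
Signal on the log2 scale above or below the 75th percentile of its array (horizontal axis) for the 15 named genes with rises between 1 and 3 (vertical axis), open symbols for the 3 control and red for the 3 apoA-I arrays, with vertical ticks at the group means. For all 15 genes, which were chosen for their small p, every apoA-I array lies above every control array.

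The 250 bases before the start of some of these genes are shown to set the letters of genes that rose beside those of genes that fell. They come from RefSeq annotation on build GRCm38.p6 and run 5′ to 3′ on the gene's own strand. Capitals mark matches, on either strand, to 5 searched motifs: the NF-kappaB consensus, the AP-1 motif TGANTCA, the cyclic AMP response element TGACGTCA, the interferon-stimulated response element (GAAA on both sides of any 2 bases) and the E-box CACGTG. Of 32851 such windows, 7.3% hold the first, 6.7% the second, 1.5% the third, 3.0% the fourth and 6.0% the last. Since 66.7% of the tested genes have a window, which is too few to compare gene sets, no such comparison was made. The first 4 windows belong to genes that rose.
Nfkbia promoter (chr12:55492648-55492897, minus strand): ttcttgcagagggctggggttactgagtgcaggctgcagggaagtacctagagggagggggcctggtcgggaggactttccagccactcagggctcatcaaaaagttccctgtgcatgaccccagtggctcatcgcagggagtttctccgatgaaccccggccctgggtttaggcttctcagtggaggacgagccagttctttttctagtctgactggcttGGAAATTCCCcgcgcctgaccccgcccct
Irf1 promoter (chr11:53769764-53770013, plus strand): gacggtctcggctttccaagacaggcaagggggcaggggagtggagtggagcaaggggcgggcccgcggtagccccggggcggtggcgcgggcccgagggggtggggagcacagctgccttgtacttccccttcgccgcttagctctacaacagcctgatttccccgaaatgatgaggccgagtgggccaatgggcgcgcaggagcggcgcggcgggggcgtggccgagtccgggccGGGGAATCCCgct
Icosl promoter (chr10:78069118-78069367, plus strand): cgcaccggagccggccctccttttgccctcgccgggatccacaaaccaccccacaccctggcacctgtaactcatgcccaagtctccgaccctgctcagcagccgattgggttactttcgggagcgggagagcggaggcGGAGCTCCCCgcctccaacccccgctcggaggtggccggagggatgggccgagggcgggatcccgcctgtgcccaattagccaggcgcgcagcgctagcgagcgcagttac
Ccl9 promoter (chr11:83578637-83578886, minus strand): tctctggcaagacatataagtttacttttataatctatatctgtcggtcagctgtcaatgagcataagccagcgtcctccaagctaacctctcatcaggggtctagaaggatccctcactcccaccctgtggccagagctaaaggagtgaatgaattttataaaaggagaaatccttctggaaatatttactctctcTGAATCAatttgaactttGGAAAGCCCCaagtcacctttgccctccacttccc
The last 3 belong to genes that fell.
Gadd45g promoter (chr13:51846425-51846674, plus strand): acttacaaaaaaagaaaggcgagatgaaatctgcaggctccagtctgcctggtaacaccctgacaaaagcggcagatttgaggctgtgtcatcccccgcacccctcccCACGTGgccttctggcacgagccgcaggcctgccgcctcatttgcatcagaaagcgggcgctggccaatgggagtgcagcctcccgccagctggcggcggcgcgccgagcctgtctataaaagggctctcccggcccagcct
Hhex promoter (chr19:37434591-37434840, plus strand): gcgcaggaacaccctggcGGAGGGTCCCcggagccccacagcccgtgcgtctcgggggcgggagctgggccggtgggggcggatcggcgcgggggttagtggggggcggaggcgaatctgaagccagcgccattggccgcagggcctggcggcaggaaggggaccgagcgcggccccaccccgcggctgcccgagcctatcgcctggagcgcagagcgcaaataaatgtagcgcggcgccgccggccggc
Jun promoter (chr4:95052223-95052472, minus strand): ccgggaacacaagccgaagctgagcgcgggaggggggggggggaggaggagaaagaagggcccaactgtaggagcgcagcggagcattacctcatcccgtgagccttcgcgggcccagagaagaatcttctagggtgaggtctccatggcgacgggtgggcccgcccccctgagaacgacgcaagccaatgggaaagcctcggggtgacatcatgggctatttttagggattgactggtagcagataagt
A match to the NF-kappaB consensus appears in each of the first 4 windows, reading GGAAATTCCC in Nfkbia, GGGGAATCCC in Irf1, GGAGCTCCCC in Icosl and GGAAAGCCCC in Ccl9, and also in Hhex (GGAGGGTCCC), which fell. Irf1 has a further annotated start, whose window holds no match. Ccl9 also holds an AP-1 match and Gadd45g an E-box, and Jun holds no match in this window. The genes were chosen after their values were seen, and a match describes letters, not binding.

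NF-kappaB subunits and their inhibitors rose together: 13 of 21 measured members were higher and none lower, with a median log2 change of 1.39, against a background of 2.37% of genes higher. All 5 subunits passed, named here after their values were seen: Rel (2.41), Nfkb2 (1.84), Nfkb1 (1.57), Rela (1.02) and Relb (0.99). The 5 came to 1 without the replicate block and to between 1 and 4 with an array left out (1 without control replicate 2, 2 without apoA-I replicate 2, 3 without control replicate 1 or apoA-I replicate 1). Of 13 inhibitors, 8 passed. The largest were Nfkbiz, a nuclear IkappaB protein (3.99, SE 0.38, adjusted p = 0.00136), Tnfaip3, the ubiquitin-editing enzyme A20 (2.72, SE 0.26, adjusted p = 0.00126), and Nfkbia, the classical IkappaB-alpha. Nfkbia read 6.48, 5.65 and 6.06 in control cells and 8.54, 8.11 and 8.17 in treated cells (2.21, SE 0.34, 4.63-fold higher, adjusted p = 0.0129), and its groups did not overlap. None of the 3 IkappaB kinase genes passed (limma, 0 with an unadjusted p under 0.05), and their changes ran from -0.45 to 0.41. The 13 came to 6 without the replicate block and to between 6 and 11 with an array left out (6 without control replicate 2, 7 without apoA-I replicate 2). With an array left out the call was lost for Rel (highest adjusted p = 0.0941, without apoA-I replicate 2) and for Nfkbia (highest adjusted p = 0.0845, without control replicate 2), with normexp correction for Rel as well (adjusted p = 0.0548), and kept for Nfkbiz, Tnfaip3 and Nfkb2.

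Chemokine ligands, the secreted proteins that attract leukocytes, gave 14 rises and no fall among 29 measured genes, with a median of 1.31. That is 48.3% of them, against 2.37% of all genes higher. Control and apoA-I arrays did not overlap for 14 of the 29, against 13.1% of all genes. The largest rises were Ccl4 (5.93, SE 0.42, adjusted p = 0.000292) and the neutrophil attractants Cxcl2 (5.85, SE 0.50, adjusted p = 0.000865), Cxcl3 (5.52, SE 1.16, adjusted p = 0.0436) and Cxcl1 (4.92, SE 0.65, adjusted p = 0.00589). Cxcl1 read 2.31, 1.43 and 1.61 in control cells and 7.15, 6.74 and 6.21 in treated cells. The lowest treated array thus lay far above the highest control. Cxcl3 lost its call with an array left out (highest adjusted p = 0.207, without apoA-I replicate 2), and Ccl4, Cxcl2, Cxcl1 and Ccl9 kept theirs. The count of 14 came to 9 without the replicate block and to between 7 and 12 with an array left out (7 without control replicate 2 or apoA-I replicate 2, 8 without control replicate 3, 9 without apoA-I replicate 3). Of 23 chemokine receptors and related receptors 2 were higher, Ccrl2 and Ptafr, the receptor of platelet-activating factor (1.07, SE 0.22, adjusted p = 0.0368). Ptafr lost its call with an array left out (highest adjusted p = 0.211, without apoA-I replicate 2).

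Among cytokines, the interleukin genes gave 8 rises and no fall among 30, with a median of 0.61; the family as matched by symbol includes Il4i1, which is an enzyme. In the IL-1 family 2 of 7 measured ligands rose and none of 9 receptors and inhibitors, whose changes ran from 0.03 to 0.83 (1 with an unadjusted p under 0.05 in limma). In the TNF superfamily, 4 of 13 ligands, 2 of 25 receptors and 3 of 13 adaptors rose, with medians of 1.15, 0.14 and 0.41. The 4 ligands came to 2 without the replicate block and to between 2 and 5 with an array left out (2 without control replicate 2 or apoA-I replicate 2). The ligands were led by Tnfsf9, the 4-1BB ligand (5.61, SE 0.33, adjusted p = 9.86e-05), and Tnf (5.16, SE 0.31, adjusted p = 0.00011). Cd40, the receptor through which T cells activate macrophages, went from -0.09, -0.45 and -1.16 to 3.05, 3.96 and 2.88 (3.86, SE 0.27, 14.5-fold higher, adjusted p = 0.000298), with no overlap. All 4 of Tnfsf9, Tnf, Cd40 and Traf1 kept their call with each array left out. Of 33 other cytokine receptors, 1 rose, Il17ra (1.89, SE 0.36, adjusted p = 0.0294), and it lost its call with an array left out (highest adjusted p = 0.154, without control replicate 2). No test compared ligands with receptors.

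Of 49 members of the TGF-beta superfamily 5 rose and none fell (10.2%, against 2.37% of all genes higher), with a median of 0.11. Inhba, whose product forms activin A (mm7 chromosome 13, 15394279 to 15394338), read 0.87, 0.46 and 0.23 in control cells and 3.90, 4.51 and 3.54 in treated cells (3.46, SE 0.32, 11-fold higher, adjusted p = 0.0012). Gdf15, a stress-induced ligand that suppresses appetite, changed by 2.79 (SE 0.31, adjusted p = 0.00271), Id3, an inhibitor of basic helix-loop-helix factors, by 2.28 (SE 0.27, adjusted p = 0.00327), and Skil, a Smad corepressor, by 1.18 (SE 0.24, adjusted p = 0.0385). The 5 came to 1 without the replicate block and to between 3 and 4 with an array left out (3 without control replicate 1 or 2 or apoA-I replicate 1, 2 or 3). Skil lost its call with an array left out (highest adjusted p = 0.198, without apoA-I replicate 2) and the other 3 named kept theirs. Of 21 growth factors, 2 rose: Csf1, the growth factor of macrophages themselves (1.67, SE 0.19, adjusted p = 0.0032), and Areg, a ligand of the EGF receptor, described with the genes that were off in controls.

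**Figure D4:**
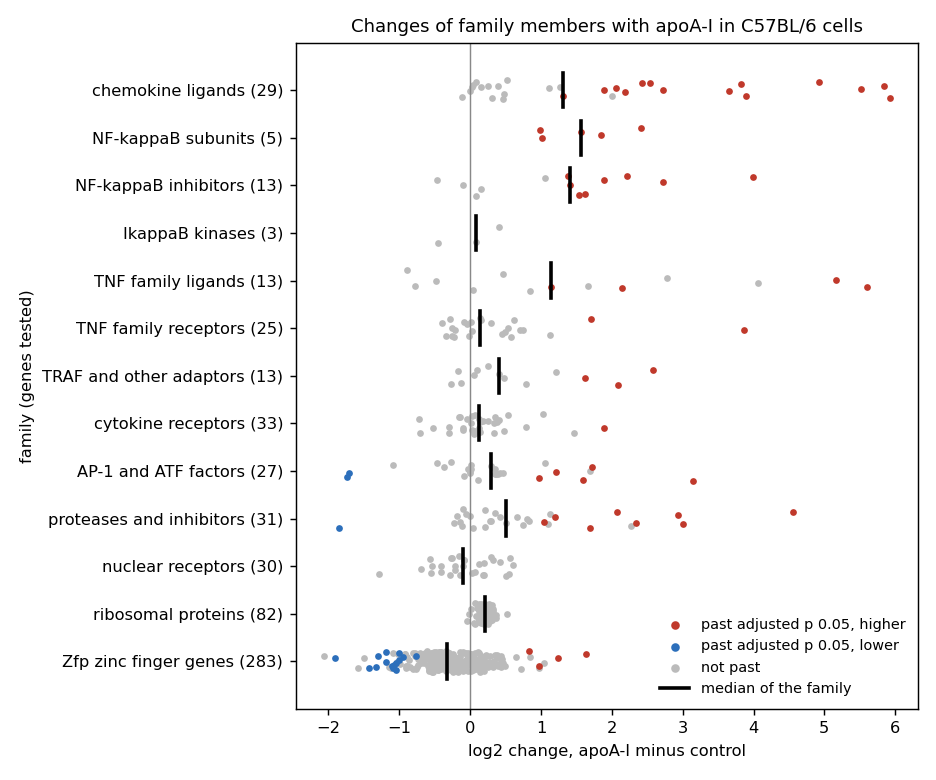
Log2 change with apoA-I (horizontal axis) of each measured member of 13 families (vertical axis, number measured in brackets), red for members past adjusted p 0.05 and higher, blue for those lower, grey for the rest, and a black bar at the family's median. Chemokine ligands and NF-kappaB subunits and inhibitors spread to the right, the 283 Zfp genes have a median of -0.32, and the 82 ribosomal protein genes form a tight cluster with none past the threshold.

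Early-response transcription factors moved in both directions. Of 27 AP-1 and ATF genes, 5 rose and 2 fell. Maff, a small Maf protein, changed by 3.15 (SE 0.20, adjusted p = 0.000139), Jdp2 by 1.72, Junb by 1.59 (SE 0.28, adjusted p = 0.0232) and Fosl2 by 1.22 (SE 0.20, adjusted p = 0.0152), whereas Jun was among those that fell. The rises came to 3 without the replicate block and to between 2 and 4 with an array left out (2 without control replicate 1 or 2 or apoA-I replicate 2, 3 without apoA-I replicate 3), and the 2 falls to 0 without the replicate block and to between 0 and 1 with an array left out (0 without control replicate 1, 2 or 3 or apoA-I replicate 1 or 2, 1 without apoA-I replicate 3). The call was lost with an array left out for Junb (highest adjusted p = 0.141, without apoA-I replicate 2) and for Fosl2 (highest adjusted p = 0.0991, without control replicate 2). Of 12 Egr, Nr4a and Ier genes, 3 rose: Ier2 (2.46, SE 0.49, adjusted p = 0.0355), Ier3 (1.97, SE 0.24, adjusted p = 0.0039) and Nr4a1, an orphan nuclear receptor of the immediate-early class (1.48, SE 0.20, adjusted p = 0.00679). Ier2 lost its call with an array left out (highest adjusted p = 0.166, without apoA-I replicate 2). In the list of IRF, STAT and ETS factors 4 of 35 rose, Irf1, Stat5a (1.90, SE 0.32, adjusted p = 0.018), Ets2 (1.54, SE 0.30, adjusted p = 0.0307) and Etv6 (0.97, SE 0.16, adjusted p = 0.0167), and 1 fell, Irf2bp2 (-1.25, SE 0.26, adjusted p = 0.0416), which binds Irf2 and is itself no interferon regulatory factor. The call was lost with an array left out for Stat5a (highest adjusted p = 0.104, without control replicate 2) and for Ets2, Etv6 and Irf2bp2 (highest adjusted p of 0.149, 0.117 and 0.223, without apoA-I replicate 2). A list of further nuclear receptors and their cofactors leaves out the Nr4a genes, and none of its 30 measured members passed in limma (6 with an unadjusted p under 0.05), and their changes ran from -1.29 to 0.60.

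Some members of several families that restrain signalling rose, to be read against 2.37% of all genes higher. Suppressors of cytokine signalling, which bind activated JAK kinases and their receptors, gave 3 rises among 8: Cish (4.47, SE 0.43, adjusted p = 0.00138), Socs3 (3.37, SE 0.20, adjusted p = 9.89e-05) and Socs1 (1.78, SE 0.23, adjusted p = 0.00575). Socs1 lost its call with an array left out (highest adjusted p = 0.0503, without apoA-I replicate 2). Of 16 Sprouty, Spred and other feedback genes of the RAS-MAPK pathway, 4 rose and none fell, and the median was -0.015. The 4 came to 2 without the replicate block and to between 2 and 3 with an array left out. Spry1 changed by 1.93 (SE 0.18, adjusted p = 0.00123), Errfi1, which inhibits the EGF receptor, by 1.75 (SE 0.29, adjusted p = 0.0175), Trib1 by 1.47 (SE 0.17, adjusted p = 0.00317) and Spred1 by 0.98 (SE 0.16, adjusted p = 0.0158). Dual-specificity phosphatases, which switch off MAP kinases, gave 3 of 19: Dusp2 (1.71, SE 0.22, adjusted p = 0.00583), Dusp16 (1.05, SE 0.21, adjusted p = 0.0326) and Dusp11 (0.71, SE 0.14, adjusted p = 0.0307). Dusp11 acts on RNA rather than on MAP kinases. The 3 came to 0 without the replicate block and to 1 with any array left out. Messenger RNA decay genes gave 4 of 25, led by Zc3h12a, the endonuclease Regnase-1 (2.36, SE 0.32, adjusted p = 0.0072), Zc3h12c (1.86, SE 0.23, adjusted p = 0.00473), Zfp36 and Btg1 (0.91, SE 0.13, adjusted p = 0.0111). These 4 came to 1 without the replicate block and to between 2 and 5 with an array left out (2 without apoA-I replicate 2). Leaving out an array removed the call for Errfi1, Dusp11, Zc3h12a and Btg1 (highest adjusted p of 0.0941, 0.194, 0.0572 and 0.0864, without apoA-I replicate 2) and for Spred1 and Dusp16 (highest adjusted p of 0.0977 and 0.175, without control replicate 2).

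Receptors and small GTPases showed rises and falls side by side. Of 35 G protein-coupled receptors for lipids, nucleotides and metabolites, 5 rose and 3 fell. Hcar2, the niacin receptor, changed by 2.98 (SE 0.28, adjusted p = 0.00126), and Adora2b, an adenosine receptor, by 2.55 (SE 0.28, adjusted p = 0.00253). Lpar1, a receptor of lysophosphatidic acid, rose (1.73, SE 0.33, adjusted p = 0.0299), as did Gpr183, which senses oxysterols (0.93, SE 0.19, adjusted p = 0.0419). Lpar6, another receptor of lysophosphatidic acid, fell. It read 0.62, 0.86 and 0.85 in control cells and -0.90, -0.82 and 0.22 in treated cells (-1.28, SE 0.24, adjusted p = 0.028), and its further probe gave -1.38 with adjusted p = 0.048. S1pr2, a receptor of sphingosine 1-phosphate, went from 2.24, 2.07 and 2.75 to 0.80, 0.21 and 1.72 (-1.44, SE 0.24, adjusted p = 0.0179), and its further probes gave -1.05 and -0.69 with adjusted p of 0.083 and 0.41. Cnr2 was the third to fall. The 5 rises came to 1 without the replicate block and to between 2 and 3 with an array left out (2 without control replicate 1 or 2 or apoA-I replicate 1, 2 or 3, 3 without control replicate 3), and the 3 falls to 0 without the replicate block and to between 0 and 2 with an array left out (0 without control replicate 1 or 2 or apoA-I replicate 2, 1 without control replicate 3 or apoA-I replicate 1). Among 34 small GTPases and their regulators 6 rose and 1, Rhov, fell. Rnd1 (5.32, SE 0.18, adjusted p = 6.78e-06) and Rnd3 (1.60, SE 0.28, adjusted p = 0.0219) are GTPases without GTPase activity that loosen actin fibres, and Gem (3.05, SE 0.36, adjusted p = 0.00336) and Rrad (1.63, SE 0.26, adjusted p = 0.0146) belong to the family that restrains calcium channels. The 6 came to 2 without the replicate block and to between 2 and 3 with an array left out (2 without control replicate 2 or apoA-I replicate 1, 2 or 3, 3 without control replicate 1 or 3). With an array left out the call was lost for Lpar1, S1pr2 and Rnd3 (highest adjusted p of 0.137, 0.0991 and 0.125, without control replicate 2) and for Gpr183, Lpar6 and Rrad (highest adjusted p of 0.231, 0.165 and 0.0917, without apoA-I replicate 2), and kept for Hcar2, Adora2b, Rnd1 and Gem.

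Adhesion, matrix and coagulation genes gave 14 rises and 1 fall among 64 measured. Proteases and their inhibitors held 8 of the rises and the fall among 31 members. F3, tissue factor, which starts coagulation (mm7 chromosome 3, 121503165 to 121503224), read -1.59, -1.03 and -1.60 in control cells and 2.35, 1.82 and 0.62 in treated cells (3.00, SE 0.30, 8.02-fold higher, adjusted p = 0.0016), and another probe gave 2.72 with adjusted p = 0.0013. Serpinb2, an inhibitor of serine proteases, changed by 2.93 (SE 0.63, adjusted p = 0.0454). Thbd, the anticoagulant receptor, was the 1 member to fall. Among adhesion molecules Icam1 (3.09, SE 0.18, adjusted p = 9.86e-05) and the selectin Sele, whose probe was above background on no control array (at least 7.03-fold), were higher. The 14 came to 5 without the replicate block and to between 4 and 9 with an array left out (4 without apoA-I replicate 2, 5 without control replicate 2, 8 without control replicate 3 or apoA-I replicate 1 or 3, 9 without control replicate 1), and the fall to 0 without the replicate block and to between 0 and 1 with an array left out (0 without control replicate 1 or 2 or apoA-I replicate 1 or 2). F3 and Icam1 kept their call with each array left out, and it was lost for Serpinb2 and Thbd (highest adjusted p of 0.208 and 0.125, without control replicate 2). Sele kept its call too, which is no support for a change, since its probe was dark in controls.

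Genes of cell survival and death moved both ways, with 8 rises and 4 falls among 35. Of 15 genes listed as antiapoptotic, 6 rose and 1 fell. The largest rises were Phlda1 (2.88, SE 0.43, adjusted p = 0.0115), Bcl2a1b, Cflar, the caspase-8 inhibitor c-FLIP (2.09, SE 0.20, adjusted p = 0.00137), and Pim1, a survival kinase (1.75, SE 0.23, adjusted p = 0.00549). The fall was Gadd45g, whose role differs between cell types. What any of the listed genes does to survival in these cells was not tested. Of 20 proapoptotic genes, 2 rose and 3 fell: Bcl2l11, or Bim, was higher (1.58, SE 0.27, adjusted p = 0.0186), and Bmf, Casp2 (-1.15, SE 0.22, adjusted p = 0.0307) and Casp9, the initiator caspase of the mitochondrial pathway, were lower. Casp9 read 2.33, 2.61 and 3.17 in control cells and 1.63, 1.01 and 2.33 in treated cells (-1.05, SE 0.23, adjusted p = 0.0493), and the lowest control lay only just above the highest treated array. The 8 rises came to 4 without the replicate block and to between 3 and 7 with an array left out (3 without control replicate 2, 4 without apoA-I replicate 2, 5 without apoA-I replicate 3), and the 4 falls to 0 without the replicate block and to between 0 and 3 with an array left out (0 without control replicate 1 or 2 or apoA-I replicate 1 or 2, 2 without apoA-I replicate 3). Cflar, Bcl2a1b and Pim1 kept their call with each array left out, and it was lost for Phlda1 and Bcl2l11 (highest adjusted p of 0.0791 and 0.109, without control replicate 2) and for Gadd45g, Bmf, Casp2 and Casp9 (highest adjusted p of 0.142, 0.162, 0.182 and 0.259, without apoA-I replicate 2).

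Interferon-stimulated genes gave 11 rises and no fall among 39 measured, with a median of 0.67 that was 0.49, 1.10 and 0.87 in experiments 1 to 3. Ifit1 (4.49, SE 0.61, adjusted p = 0.00688) and Isg15 (4.46, SE 0.48, adjusted p = 0.00239), both antiviral effectors, and Gbp5 (4.03, SE 0.65, adjusted p = 0.0152), a guanylate-binding protein, led the list with Mx2 (3.54, SE 0.41, adjusted p = 0.00317). The 11 came to 6 without the replicate block and to between 5 and 9 with an array left out (5 without apoA-I replicate 2, 7 without control replicate 2 or 3 or apoA-I replicate 3). Isg15 and Mx2 kept their call with each array left out, and it was lost for Ifit1 and Gbp5 (highest adjusted p of 0.0561 and 0.0948, without apoA-I replicate 2). Of 32 pattern recognition receptors 5 rose and 1 fell: Nod2 (3.04, SE 0.31, adjusted p = 0.00181), Nlrp3 (2.56, SE 0.27, adjusted p = 0.00205), Ifih1 (2.50, SE 0.32, adjusted p = 0.00536) and Cd14 (1.61, SE 0.26, adjusted p = 0.0152) were higher, and Nlrx1, a mitochondrial member of the NOD-like family, was lower (-0.89, SE 0.19, adjusted p = 0.0442). Nod2, Nlrp3 and Ifih1 kept their call with each array left out, and it was lost for Cd14 (highest adjusted p = 0.0985, without control replicate 2) and for Nlrx1 (highest adjusted p = 0.221, without apoA-I replicate 2).

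Of 41 genes of cholesterol export, uptake and storage, the process apoA-I serves, 2 were higher and 1 lower, 7.3% against 3.40% of all genes. Abcg1, which exports cholesterol to high-density lipoprotein (mm7 chromosome 17, 29310847 to 29310906), was the 1 of 17 export genes to pass, and it fell. Abcg1 read 4.32, 3.96 and 4.47 in control cells and 3.17, 2.85 and 3.45 in treated cells (-1.10, SE 0.15, 2.14-fold lower, adjusted p = 0.00798), without overlap, and the drop was of like size in each experiment. Its call was lost without the block (adjusted p = 0.0544) and with an array left out (highest adjusted p = 0.0697, without apoA-I replicate 2). Abca1, the transporter that hands cholesterol to apoA-I, read 3.17, 2.96 and 3.64 in control cells and 3.58, 3.47 and 3.45 in treated cells (0.24, SE 0.23, adjusted p = 0.675), and the groups overlapped. Of 24 uptake and storage genes 2 rose, Olr1, a receptor of oxidised lipoprotein (3.00, SE 0.43, adjusted p = 0.00943), and Fabp3, a fatty acid binding protein (2.26, SE 0.21, adjusted p = 0.0012). Olr1 lost its call with an array left out (highest adjusted p = 0.0522, without apoA-I replicate 2). None of 26 cholesterol synthesis genes passed in limma (3 with an unadjusted p under 0.05), and their changes ran from -0.19 to 0.56.

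Of 258 solute carriers 5 rose and none fell, a share of 1.9% near the 2.37% of all genes that were higher. They were led by Slc7a2, a transporter of arginine (3.33, SE 0.40, adjusted p = 0.00382), Slc25a37, mitoferrin, which carries iron into mitochondria (2.03, SE 0.24, adjusted p = 0.00382), Slc2a6, a relative of the glucose transporters (1.87, SE 0.26, adjusted p = 0.00788), and Slc39a14, a zinc transporter (1.56, SE 0.18, adjusted p = 0.00331). Slc2a6 lost its call with an array left out (highest adjusted p = 0.063, without apoA-I replicate 2), and the other 3 kept theirs. The 5 came to 3 without the replicate block and to between 3 and 4 with an array left out (3 without control replicate 2 or apoA-I replicate 2). Peroxins, which build peroxisomes, gave 3 falls among 17, among them Pex10 (-0.96, SE 0.15, adjusted p = 0.0129) and Pex26 (-0.85, SE 0.18, adjusted p = 0.0429). The call was lost with an array left out for Pex10 and Pex26 (highest adjusted p of 0.0937 and 0.211, without apoA-I replicate 2). No gene passed among 82 cytosolic ribosomal proteins (limma, 0 with an unadjusted p under 0.05), where 80 changes were positive with a median of 0.21, a median that was -0.001, 0.12 and 0.48 in experiments 1 to 3 and turned to -0.04 after quantile normalization. Among 48 proteasome subunits, 36 complex I subunits, 78 mitochondrial ribosomal proteins and 40 histones none passed in limma either, with 4, 0, 4 and 5 genes at an unadjusted p under 0.05.

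In 4 lists of enzymes and transporters of inflammatory metabolism, 1 or 3 genes rose in each and none fell. Acod1, which makes itaconate (mm7 chromosome 14, 97488885 to 97488945), read 5.51, 4.51 and 4.42 in control cells and 8.57, 8.41 and 8.03 in treated cells (3.53, SE 0.52, 11.6-fold higher, adjusted p = 0.0101), without overlap. With Slc7a2 and Arg2, a mitochondrial arginase (1.77, SE 0.38, adjusted p = 0.0458), it made 3 rises among 23 genes of arginine, polyamine and itaconate metabolism, against 2.37% of all genes higher. Ptgs2, the inducible cyclooxygenase, was the 1 of 23 eicosanoid enzymes to pass (6.34, SE 0.75, adjusted p = 0.00372). That is 4.3% of the list, whose median was -0.007. Of 37 genes of glycolysis and hypoxia 3 rose (8.1%): Adm, adrenomedullin (2.99, SE 0.31, adjusted p = 0.00184), Slc2a6, and Hk2, a hexokinase (0.86, SE 0.18, adjusted p = 0.0453). Pde4b, which degrades cyclic AMP, was the 1 of 28 genes of cyclic nucleotide signalling to pass (2.66, SE 0.24, adjusted p = 0.00103). That is 3.6% of the list, near the 2.37% of all genes higher, and the list's median was -0.008. Ptgs2, Adm and Pde4b kept their call with each array left out, and it was lost for Acod1, Arg2 and Hk2 (highest adjusted p of 0.074, 0.221 and 0.244, without apoA-I replicate 2). The 3 rises of the arginine list came to 2 without the replicate block and to between 1 and 3 with an array left out (1 without control replicate 2 or apoA-I replicate 2), and the 3 of glycolysis to 2 without the replicate block and to between 1 and 3 with an array left out (1 without control replicate 2 or apoA-I replicate 2).

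Of 38 cell cycle genes 5 rose and none fell (13.2%, against 2.37% of all genes higher), among them Cdkn1a, the inhibitor p21 (2.22, SE 0.26, adjusted p = 0.00345), Mki67, the antigen Ki-67 (2.79, SE 0.28, adjusted p = 0.00166), E2f8, a repressor of the E2F family (2.47, SE 0.28, adjusted p = 0.00317), and Ccnd2, a D-type cyclin (1.70, SE 0.29, adjusted p = 0.0196). A further Mki67 probe gave 2.97 with adjusted p = 0.0045, and the median of the 38 was -0.06. Mki67 read -0.25, 0.33 and 0.86 in control cells and 3.23, 3.12 and 2.96 in treated cells, without overlap. The integrated stress genes gave 3 rises among 29 (10.3%), Nupr1 (1.82, SE 0.20, adjusted p = 0.00259), Chac1, which degrades glutathione (1.44, SE 0.20, adjusted p = 0.00688), and Herpud1 (0.89, SE 0.18, adjusted p = 0.0345). Antioxidant, metal and heat shock genes gave 4 among 37 (10.8%): Slc39a14, the metallothioneins Mt2 (1.20, SE 0.20, adjusted p = 0.0196) and Mt1 (0.73, SE 0.13, adjusted p = 0.0237), and Txnrd1, a thioredoxin reductase (0.92, SE 0.13, adjusted p = 0.00985). Among 50 chromatin enzymes Kdm6b, a demethylase of histones (2.91, SE 0.42, adjusted p = 0.0094), rose and Tet3, which oxidises methylcytosine (-0.92, SE 0.19, adjusted p = 0.0415), fell. Among 55 orphan and adhesion G protein-coupled receptors Gpr85 (3.61, SE 0.30, adjusted p = 0.000816) and Gpr183 rose, and Gpr146 (-1.38, SE 0.26, adjusted p = 0.028) and Gpr19 (-1.06, SE 0.19, adjusted p = 0.0264) fell. Leaving out an array removed the call for Ccnd2, Chac1, Herpud1, Mt1, Kdm6b, Tet3, Gpr146 and Gpr19 (highest adjusted p of 0.117, 0.0522, 0.2, 0.153, 0.0614, 0.202, 0.153 and 0.153, without apoA-I replicate 2) and for Mt2 and Txnrd1 (highest adjusted p of 0.114 and 0.0784, without control replicate 2). Tet3, Gpr19 and Pex10 missed the threshold with normexp correction (adjusted p of 0.0577, 0.555 and 0.0684). The 5 cell cycle rises came to 2 without the replicate block and to between 3 and 4 with an array left out (3 without control replicate 2 or 3 or apoA-I replicate 2 or 3), the 3 of integrated stress to 2 without the replicate block and to between 1 and 3 with an array left out (1 without apoA-I replicate 2), and the 4 of the antioxidant list to 0 without the replicate block and to between 1 and 3 with an array left out (1 without control replicate 2 or apoA-I replicate 2, 2 without apoA-I replicate 1 or 3).

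For some of the named genes further probes, not used in the test above, gave other values. Those of Dusp11 gave 0.36, 0.19 and 0.72, that of Etv6 0.17, that of Ier2 0.36, that of Mt1 0.07, that of Tet3 0.23, which is the opposite sign, and those of Nlrx1 -0.12 and -0.14, none past the threshold, so these calls rest on 1 probe each. The further probes of Zbtb14 and Zbtb7a gave -0.49 and 0.45 and did not pass either, and neither did those of Junb (1.42, adjusted p = 0.078), Fosl2 (1.16, adjusted p = 0.16), Lpar1 (1.51, adjusted p = 0.071), Ptafr (0.71, adjusted p = 0.23) and Slc39a14 (0.82, adjusted p = 0.19). Rnd1 rose on all its probes, but by 2.03 and 1.73 on the further ones. For Cflar 4 of 5 further probes passed, with changes of 2.11 to 2.97, and the remaining one gave 0.28. Of the 4 further probes of Pvr, 3 passed, with 1.44, 1.81 and 2.04, and one gave 0.73.

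Some probes were well above background only with apoA-I, or only in controls, and their genes are called switched on or off here. For 30 genes the probe was well above background on none of the control arrays and on all 3 apoA-I arrays, and 15 of them passed the test. The converse held for 26 genes, of which 1 passed, Zfp78 (at least 2.06-fold lower, adjusted p = 0.0196), named after its values were seen. Most genes were not of this kind: 14823 of 16743 were above background on all 6 arrays, and they held 508 of the 570 genes that passed. Genes that were dark in 1 of these groups did not enter the test through that group, so their counts and adjusted p describe the fit and are no support for a change. The level of a group that is not above background is only a bound, and a fold is given as at least the ratio of the brighter group's mean to the lowest signal measured above background, or to the dim probe's own signal where that is higher. Il23a, the p19 subunit of interleukin-23 (mm7 chromosome 10, 127798207 to 127798266), read -6.39, -5.84 and -7.72 in control cells and -0.29, 0.48 and -1.09 in treated cells, at least 24-fold higher (adjusted p = 1.9e-05). Ifnb1, the type I interferon beta (mm7 chromosome 4, 87925845 to 87925904), read -5.16, -4.32 and -6.38 and 1.39, -0.99 and -1.45, at least 21.3-fold higher (adjusted p = 0.00164), and its apoA-I array of replicate 1 stood far above the other treated arrays. Areg read -6.21, -6.31 and -6.78 and 0.26, -3.88 and -4.15 (4.92-fold at least, adjusted p = 0.0285), again with replicate 1 far above the other treated arrays. With an array left out, the log2 change of Areg ran from 2.81 to 4.38, and its call was lost in 5 of the 6 fits that omitted an array (highest adjusted p = 0.0873, without control replicate 1).

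The other named genes of this kind were Il12b, Edn1 and Csf2, at least 69.6, 64.4 and 34.4 times their control bound, Sele (at least 7.03-fold), and, with smaller bounds, Htra4, a serine protease (at least 6.05-fold, adjusted p = 0.00249), Shisa3 (at least 5.52-fold, adjusted p = 0.031) and Cd247, the zeta chain of the T cell receptor complex (at least 4.47-fold, adjusted p = 0.0016). Cd247 read -5.53, -6.00 and -5.60 in control cells and -2.51, -2.65 and -3.01 in treated cells. The T cell markers measured beside it summed to 0.53 to 1.37 on the log2 scale in controls and to 0.70 to 1.53 with apoA-I, none of the 8 passed the test, and their part in the change of Cd247 was not tested. Shisa3 lost its call in 5 of the 6 fits that omitted an array (highest adjusted p = 0.177, without apoA-I replicate 2), and all of the 10 except Areg and Shisa3 kept theirs. Like their adjusted p, the kept calls of these genes are no support for a change. The number of genes switched on rose from 30 to 54, 69 or 80 when control replicate 1, 2 or 3 was left out, since fewer arrays then had to be dark, and the number switched off rose from 26 to 79, 49 or 103 without apoA-I replicate 1, 2 or 3.

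**Figure D5:**
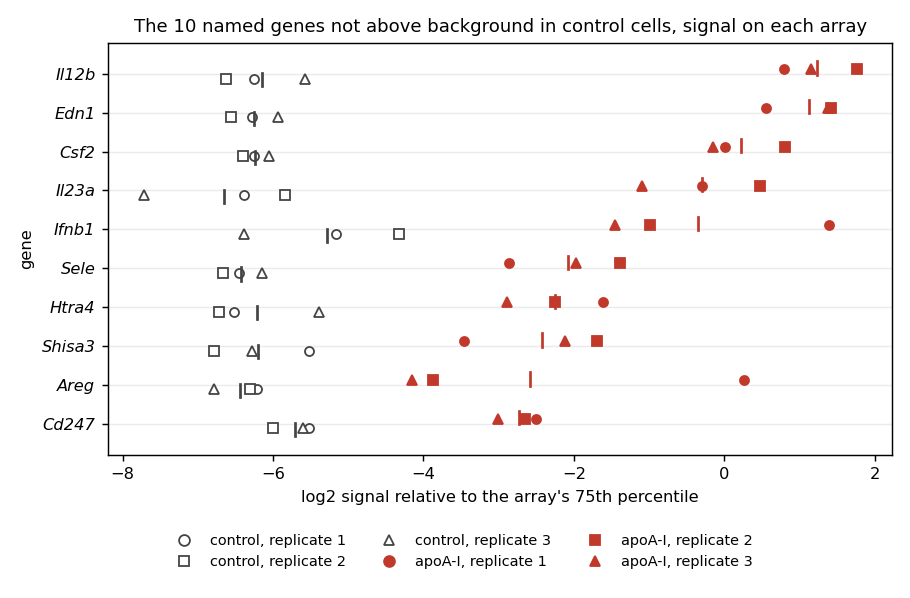
Signal on the log2 scale above or below the 75th percentile of its array (horizontal axis) for the 10 named genes whose probe was not above background on any control array (vertical axis), open symbols for the 3 control and red for the 3 apoA-I arrays, with vertical ticks at the group means. The genes were chosen as above background on all apoA-I arrays and on no control array, and in each every apoA-I array lies above every control array. Replicate 1 stands apart among the apoA-I arrays of Areg and Ifnb1.

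By level in untreated cells, the genes that rose ran from -6.65 to 8.08 with a median of 0.61, and those that fell lay between -3.71 and 5.72 with a median of -0.01. The range over all genes was -7.08 to 9.72. Probe levels depend on the probe, so these ranges describe signal and do not order genes by transcript number. Above background on all 6 arrays were 355 of the 396 rises and 153 of the 174 falls. Rgs2 and Gadd45g fell from a high control level, with means of 4.23 ± 0.12 (SD, n = 3) in control cells and 2.64 ± 0.95 (SD, n = 3) in treated cells for Rgs2 and 5.27 ± 0.13 (SD, n = 3) in control cells and 2.98 ± 1.13 (SD, n = 3) in treated cells for Gadd45g, so that both remained well above background. Zfp14 was above background on 3 control arrays and on 1 apoA-I array, and its fold is uncertain for that reason. Zkscan4, Cbx2 and Mzf1 were likewise above background on 1 apoA-I array, and Tal2 and Olfr1221 on 2.

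The same contrast in MyD88-null cells gave values that can be set beside these, and the difference between the genotypes was tested directly. MyD88 is an adaptor that carries signals from Toll-like receptors and from receptors of the interleukin-1 family. No gene's response differed between the genotypes at an adjusted p under 0.05 in limma (0.00% of 16743), and 1233 had an unadjusted p under 0.05. All 396 rises were also positive in the null cells and 274 of them passed there, and 168 of the 174 falls were also negative and 47 passed. Over all 16743 genes, 11139 had the same sign in both genotypes and 682 passed in the null cells. Of the named falls, Gadd45g gave -2.18 in null cells (adjusted p = 0.0267), Thbd -2.28 (adjusted p = 0.00769) and Zfp14 -0.23 (adjusted p = 0.708). For Zfp14 the test of the difference gave adjusted p = 0.628. Irf1 and Ehd1 changed by 3.58 and 3.62 in null cells, more than the 2.21 and 2.04 of C57BL/6 cells, but the differences had adjusted p of 0.347 and 0.235.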

How the data were processed

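The 12 arrays are one-colour Agilent arrays labelled with Cy3 from 500 ng of RNA. Per the file headers they were read with Agilent Feature Extraction 9.5.1.1 or 9.5.3.1 (9.5 per the submitters' processing notes), and the deposited processed intensity of a spot is background-corrected and detrended within its array, with no scaling between arrays. A deposited table of the authors' values on a log10 scale, read from its match to the scanner intensities (r of 0.9947 or more on each array), served as an alternative, with unstated centring. Its column medians ran from 1.82 to 1.87.

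From the intensities, log2 values minus each array's 75th percentile over probes were computed. Spots marked as outliers were left out, which removed a value for 3 genes on these 6 arrays, none of them past the threshold, and saturated spots were kept. Probes well above background on all arrays of some group were kept (24351 of 41174), with the brightest probe for a gene, giving 16743 genes. Probes were named through RefSeq genes of GRCm38.p6: 22951 by accession, 131 by another accession, 6582 by symbol and 3073 by synonym, and 8437 kept the file's name. Positions are those of the probes on mm7 in the files, and no exon annotation of mm7 was used.

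Limma 3.58.1 in R 4.3.3 fitted 4 group means and the replicate number to all 12 arrays (6 residual and 2.45 prior degrees of freedom). Arrays of the same number in different groups deviated together from their group means, with correlations of 0.296 to 0.859, and 0.655, 0.619 and 0.731 for the C57BL/6 pairs. Arrays of different numbers and groups gave -0.81 to 0.55, and -0.61 to 0.22 between C57BL/6 arrays. Over all arrays the 2 ranges thus overlap. Taking deviations from a mean of 3 arrays lowers the values for different numbers by construction. P-values were two-sided, Benjamini-Hochberg adjusted over all genes, with a threshold of 0.05. Pairs 1 and 2 each shared a slide and a scan day, and pair 3 shared a scan day but not a slide. The fit was tested on simulated data.

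The rule for named genes took, among characterised genes past the threshold with 1 sign in all 3 experiments, the 20 largest falls, the 15 rises between 1 and 3 with the smallest p, the 10 genes off in controls with the largest bound, and up to 4 members in each direction of every list. The members and lists were chosen with earlier results of these data known. Symbol families may hold unrelated genes, and a few genes that the rule takes are not reported here. Other alternatives were the normalization, background correction, filters, probes, slide and scan day, each array left out, and the fit without the block. With 3 arrays a group, precision is limited.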

Additional observations from a re-analysis of the deposited data

Results flagged for a closer look

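Among the named genes, Tal2 and Olfr1221 moved in opposite directions in the 2 genotypes in every experiment. Tal2 changed by -1.24, -2.88 and -1.02 in experiments 1 to 3 in C57BL/6 cells and by 0.50, 0.02 and 0.48 in MyD88-null cells, a difference of responses of -2.04 (SE 0.45) with limma's adjusted p = 0.436. Olfr1221 changed by -2.29, -0.91 and -1.83 in C57BL/6 cells and by 1.81, 2.16 and 0.48 in MyD88-null cells, a difference of -3.16 (SE 0.52) with adjusted p = 0.272. Neither difference passed, and both genes were dim.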

How the results depend on the processing

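Against 396 rises and 174 falls, the numbers past the threshold were 136 and 3 without the replicate block, 244 and 16 with the 6 C57BL/6 arrays alone, 202 and 13 without the filter on dim probes, and 125 and 23 with the slide as a block. The scan day as a block gave 269 and 54, normexp correction 390 and 111, quantile normalization 325 and 164, the authors' deposited values 367 and 168, a filter on all 6 arrays 408 and 227, and every probe on its own 459 and 214 genes. Treatments taken from the descriptions gave 0 and 0, with 673 genes at an unadjusted p under 0.05. Leaving out an array or a replicate number gave 21 to 267 rises and 0 to 63 falls. Chosen after seeing the data, a percentile over spots gave 388 and 210, and leaving out both arrays with conflicting descriptions 81 and 0, with 1831 genes at an unadjusted p under 0.05. Rises made up 69.5% of the calls, 77.8% with normexp correction and 66.5% with quantile normalization. Genes switched on numbered 30, or 46 over every probe, and 30 to 80 with an array left out; those switched off numbered 26, and 28 to 103 with an array left out. No sign of the 570 changes turned under these settings, and no scaling moved the median of all genes by more than 0.1. Since each of the 570 had the same sign in every experiment, some of these settings could not turn it. These were the fits without the block, with the scan day as a block and with a replicate number left out. Of the 198 named genes, 82 passed without the block, 162 after quantile normalization, 174 with normexp correction, 84 with the slide as a block and 79 in every fit with an array left out. The cause of these losses was not tested. The probes of 11 genes were above background on none of the 6 arrays, and for dim probes a small shift in background moves the log2 value.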
